A study of Ovis aries with 6 samples.

Results

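The 9 genes described here encode the enzymes and the transporter with which muscle buffers its ATP. They are CKM, CKB, CKMT2, GATM, SLC6A8, AK1, AMPD1, AMPD3 and ADSSL1, and they were taken from the 23144 gene symbols of the deposited count table because their names stood on a list of 10. The other name on that list, GAMT, is not used as a symbol in the table, but the row LOC101114955 carries the gene ID that RefSeq now lists as GAMT, and its values are given beside those of the 9. The libraries came from the longissimus dorsi, the long back muscle, of ewes aged 1 year, 3 of the breed Qianhua Mutton Merino (QHMM) and 3 of the breed Small Tail Han (STH). The breeds had been raised in a shared environment, which the labels call natural conditions, with free access to food and water, and had no treatment named. The study's methods also state that live weight was taken before slaughter, after a fast. The part of this fast in the values below was not tested. Each animal gave 1 library. QHMM was bred by crossing rams of the South African Mutton Merino with Chinese Northeast Fine-wool ewes and selecting among the offspring, whereas STH is a traditional local breed. The animals came from a single breeding company, so a breed here is 3 of its ewes. The study asked how muscle gene expression differs between breeds that differ in meat yield.

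A contracting fibre uses ATP faster than it can be made from fuel. Creatine kinase moves a phosphate group between creatine phosphate and ADP, adenylate kinase makes ATP and AMP from a pair of ADP molecules, and AMP deaminase removes the AMP by turning it into IMP. Adenylosuccinate synthetase and adenylosuccinate lyase then rebuild AMP from IMP, and this loop is called the purine nucleotide cycle. Creatine itself is made from arginine, glycine and a methyl group, largely in other organs, and muscle takes it up from the blood.

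Between 10982191 and 14334544 reads were counted on genes in each library, and the 9 genes took 3.64% to 4.92% of them in QHMM and 4.70% to 6.32% in STH, nearly all on CKM (95% Wilson intervals within 0.0144 percentage points, for counting error only). The skeletal muscle markers ACTA1, DES, TTN and NEB were abundant in all libraries, with a summed RPKM of 37984 to 73794. RPKM is the read count divided by gene length and by library total. Slow-fibre markers were lower in STH, with a summed RPKM of 7271 to 11223 against 16470.0 to 23817 in QHMM, and edgeR called 4 of the 8 in the table (OMYHCS, MYH7B, MYL2 and TNNT1) as down-regulated. The fast-fibre markers summed to 56404 to 77391 in QHMM and 49549 to 66422 in STH. Of the 7 tested, edgeR called 0 (2 with an unadjusted p below 0.05, against 2395 of all 12506 tested genes) and DESeq2 called 1. TNNT3 was listed at 0 in all libraries. PVALB, which was not tested, had 269, 3 and 131 reads in QHMM and 10, 3 and 0 in STH. It was called when the filter on low counts was left out. The fast myosin rows OMYHC2A and OMYHC2X were not on the list, so the sums leave them out. Adipocyte markers fell in 4 of 5 genes (ADIPOQ, PLIN1, LEP and CIDEC), with sums of 59.2 to 276 in QHMM and 40.3 to 129 in STH. Of 7 immune, 5 smooth muscle, 3 endothelial, 4 fibroblast and 5 nerve markers tested, edgeR called 0 (1 with an unadjusted p below 0.05, in the fibroblast list) and DESeq2 called that 1. QHMM replicate 2 and STH replicate 3 had the lowest scaling factors of edgeR's TMM normalization, 0.852 and 0.853, against 1.01 to 1.20 in the other 4 libraries.

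Per length, the 9 genes spanned a wide range, from a mean RPKM of 2.78 for GATM to 24298 for CKM in QHMM. CKM, which encodes the cytosolic creatine kinase of muscle, had an RPKM of 24298 ± 3969 (mean ± SD, n = 3) in QHMM and 32216 ± 4964 in STH, the 3rd and the 2nd highest of 23140 genes by the breed's mean. CKMT2, the creatine kinase of sarcomeric mitochondria, followed with 1807 ± 296 and 1081 ± 99.7, and AK1, the cytosolic adenylate kinase, with 1039 ± 210.5 and 755 ± 129. For CKM, CKMT2 and AK1, each gene's libraries lay above all libraries of the next gene in the same breed.

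**Figure D1:**
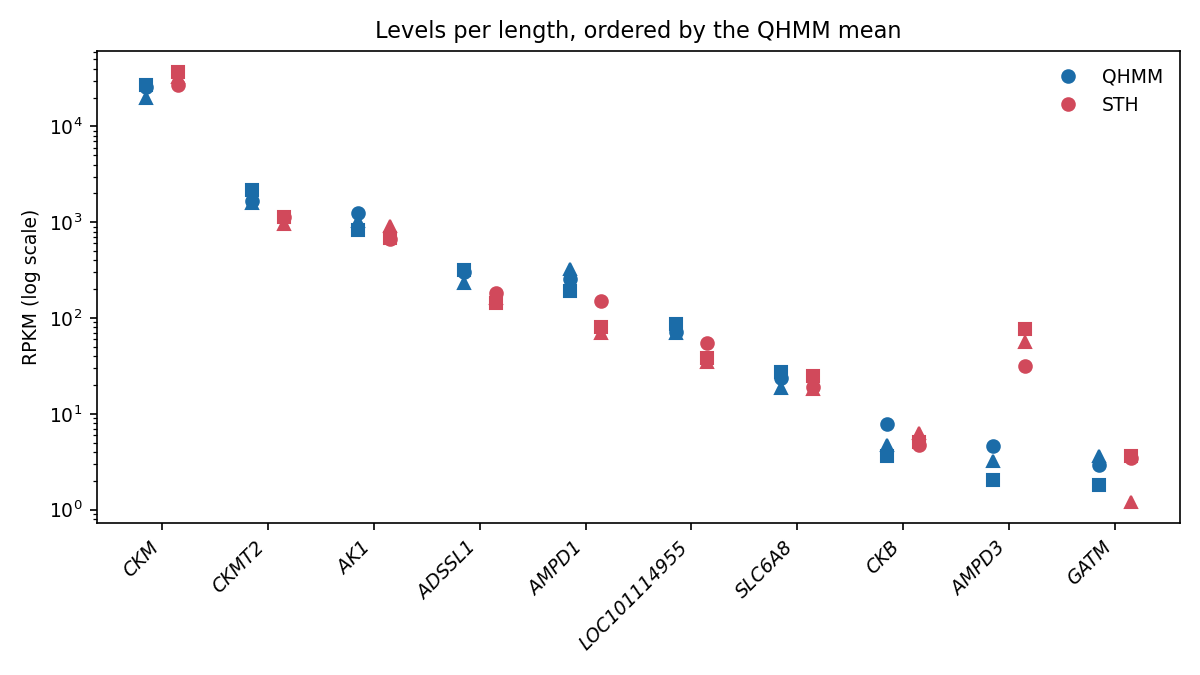
RPKM (log scale) of the 9 genes and LOC101114955 in each of the 6 libraries, with genes ordered from left to right by the QHMM mean, QHMM in blue and STH in red, and a marker shape for each replicate number. CKM lies near the top in both breeds, and AMPD3 moves from 2.02 to 4.61 in QHMM up to 31.3 to 77.6 in STH.

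In the middle of the range stood ADSSL1, the muscle isoform of adenylosuccinate synthetase, with an RPKM of 283 ± 43.9 in QHMM and 164 ± 19.0 in STH, and AMPD1, the AMP deaminase of skeletal muscle, with 259 ± 67.7 and 100.1 ± 43.9. The ranges of these neighbours overlapped in both breeds. In QHMM the order went on with LOC101114955 (75.6 ± 8.88), SLC6A8 (23.2 ± 4.29), CKB (5.41 ± 2.24), AMPD3 (3.28 ± 1.29) and GATM (2.78 ± 0.921), where the libraries of CKB, AMPD3 and GATM were not separated from the next in line. In STH, AMPD3 had moved up to 55.0 ± 23.2, between AMPD1 and LOC101114955 (42.3 ± 10.5), and its range overlapped with both. By the breed's mean RPKM, AMPD3 was number 7523 of 23140 genes in QHMM and number 1130 in STH.

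Of the 9 genes, all passed the filter for low counts and edgeR's quasi-likelihood test called 2 in STH vs. QHMM, with AMPD3 up-regulated and AMPD1 down-regulated. A call needed an FDR below 0.05, adjusted by Benjamini-Hochberg over the 12506 genes tested, and a change of more than 1.5-fold in either direction. Of all tested genes 3.45% were called, 1.62% as up-regulated and 1.83% as down-regulated. Scaling by library totals in place of TMM gave 158 up-regulated and 92 down-regulated genes against 203 and 229, and raised the median log2 fold change of the tested genes from 0.02 to 0.14. The median log2 fold change of the 9 genes was -0.31, and 7 of the 9 values were below 0, against 6026 of all 12506 tested genes. The libraries of the breeds did not overlap in 4 of the 9 (AMPD1, AMPD3, ADSSL1 and CKMT2), and they did not overlap in 24.7% of all tested genes. In tissue RNA, fewer cells of a type and less of the RNA in each cell cannot be told apart.

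**Figure D2:**
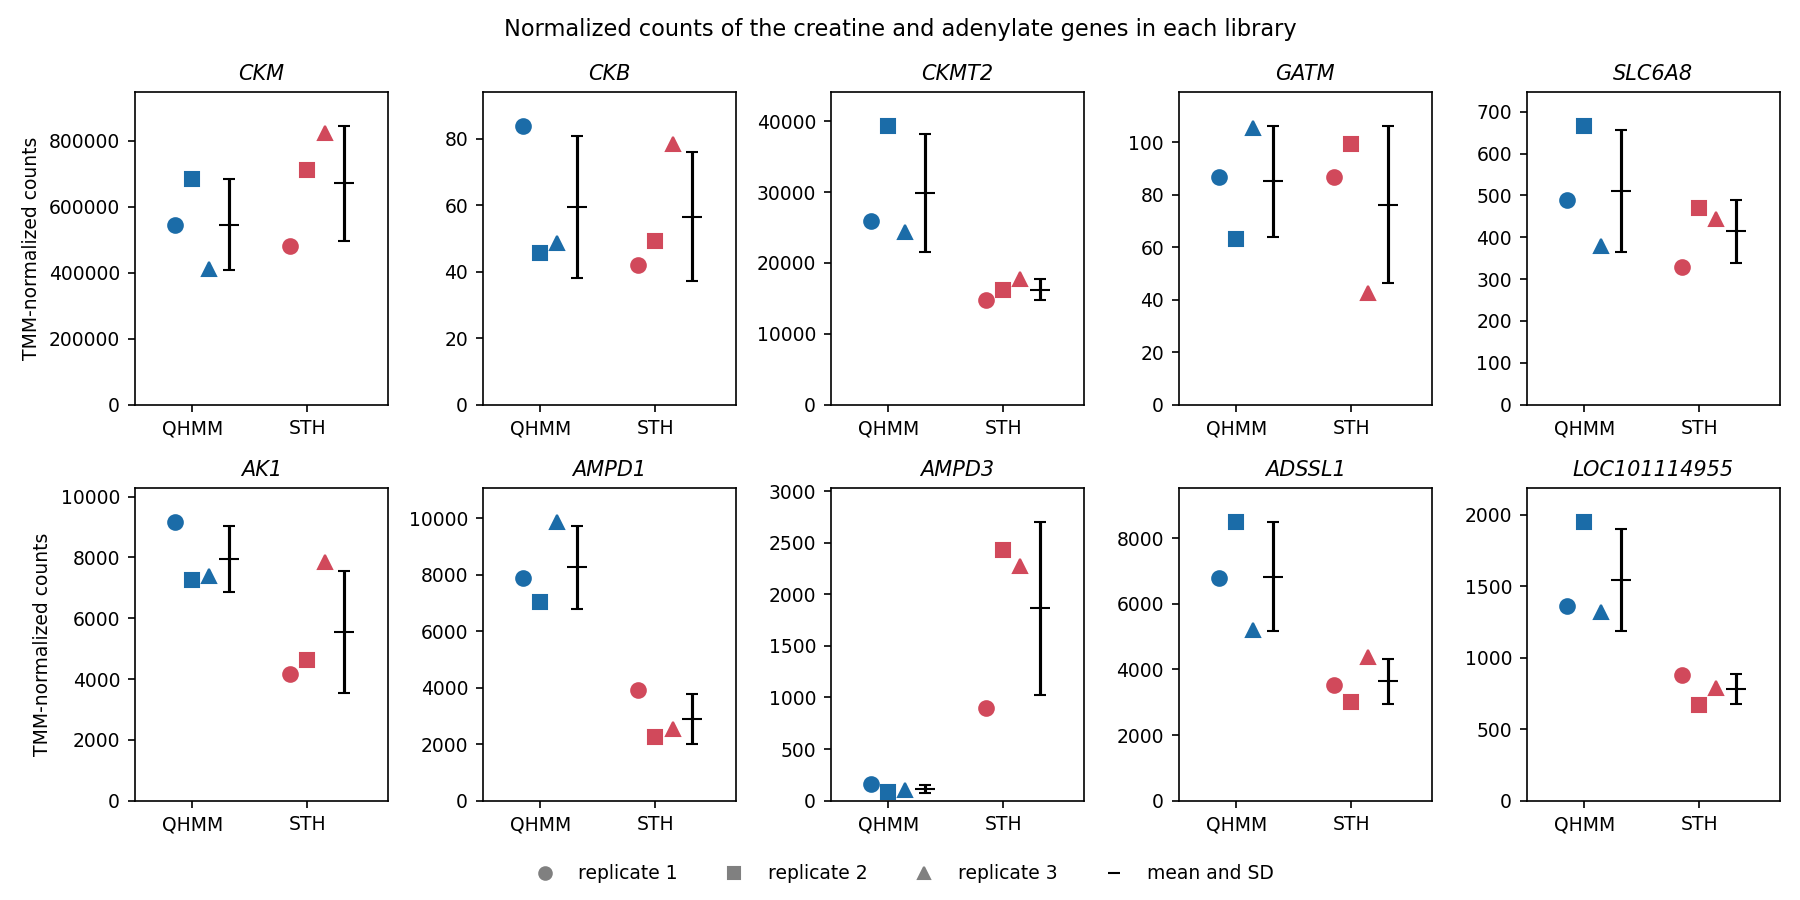
TMM-normalized counts of the 9 genes and LOC101114955 in each library, with a marker shape for each replicate number and the mean and SD of each breed (n = 3) as a black bar; each vertical axis starts at 0. The breeds are apart in the panels of CKMT2, AMPD1, AMPD3, ADSSL1 and LOC101114955, and overlap in those of CKM, CKB, GATM, SLC6A8 and AK1.

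AMPD3 encodes the AMP deaminase isoform best known from red blood cells, and muscle carries it beside AMPD1. Its TMM-normalized counts were 157, 81.9 and 108 in the QHMM libraries, in the order of replicates 1 to 3 used throughout, and 902, 2426 and 2271 in the STH libraries. Every STH library was thus above every QHMM library, and STH replicate 1 was the lowest of its breed. The log2 fold change was 4.01 (SE 0.41, 95% interval 3.09 to 4.92, FDR = 0.00234), a 16.1-fold higher level in STH. By p-value AMPD3 was number 7 of the 12506 genes, and by log2 fold change it was number 6 of the 9218 with a mean of at least 50 normalized counts. edgeR called it with any 1 library left out, where the log2 fold change lay between 3.76 and 4.32. It was no longer called when QHMM replicate 2 and STH replicate 3 were left out together, with a log2 fold change of 3.64 (FDR = 0.0604) in a fit that called 11 of all genes.

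Because AMPD3 is best known from red blood cells, blood markers were read in the same libraries. Of 10 such names, 5 are in the table, and the haemoglobin names HBA1, HBA2, HBB and HBBC are not among them. HBM, SLC4A1 and EPB42 were listed at 0 in all 6 libraries, which allows up to 3 counts in a library, for counting error only. ALAS2, which encodes the heme synthesis enzyme of red cell precursors, had 0 to 9 counts. AHSP, a chaperone of alpha-haemoglobin, had 4, 0 and 0 counts in QHMM and 23, 6 and 0 in STH. The 5 markers summed to an RPKM of 0 to 0.776 in QHMM and 0.0727 to 3.62 in STH. A row described by the authors as similar to HBA1, LOC101108797, was looked up after the values were seen and had 16 to 55 counts in QHMM and 21 to 55 in STH.

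AMPD1 had 7894, 7020.5 and 9885 normalized counts in QHMM and 3902, 2256 and 2535 in STH. The lowest QHMM library was above the highest STH library, which was again replicate 1. AMPD1 fell by 1.51 on the log2 scale (SE 0.28, 95% interval -2.14 to -0.89, FDR = 0.0205), and its level in QHMM was 2.85 times that in STH. Slow-fibre markers were also lower in STH, as given above. So were the adipocyte markers ADIPOQ, PLIN1, LEP and CIDEC, although the adipocyte sums of the breeds overlapped. The tested fast-fibre markers, which edgeR did not call, had log2 fold changes from -1.02 (ACTN3) to -0.19 (TNNC2). The part of these markers in the AMPD1 result was not tested. The log2 fold change stayed between -1.80 and -1.36 with 1 library left out, but the call was lost without QHMM replicate 1 (FDR = 0.0562), QHMM replicate 3 (FDR = 0.0707), STH replicate 2 (FDR = 0.0673) or STH replicate 3 (FDR = 0.0502). It was also lost when library totals replaced TMM (log2 fold change -1.37, FDR = 0.0665).

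Within a library, the ratio of the AMP deaminase genes does not depend on how libraries are scaled. Per length, the log2 ratio of AMPD3 to AMPD1 was -5.80, -6.57 and -6.67 in the QHMM libraries, against -2.27, -0.05 and -0.31 in the STH libraries. The means differed by 5.48, with -6.35 ± 0.48 in QHMM and -0.88 ± 1.21 in STH, a 44.5-fold higher ratio in STH (two-sided exact permutation p = 0.10, the smallest that 3 against 3 libraries can give; 0.10 after adjustment over the 2 ratios tested). AMPD3 made up 1.76%, 1.04% and 0.970% of the summed RPKM of this pair in QHMM and 17.2%, 49.2% and 44.6% in STH. Counting error on the same share in read counts was at most 1.49 percentage points in any library. The STH libraries therefore ranged from AMPD1 well above AMPD3, in replicate 1, to nearly equal levels in replicate 2.

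The sum over both genes was 262, 195 and 331 RPKM in QHMM and 182, 158 and 126 in STH. The highest STH sum lay below the lowest QHMM sum, and the level of AMPD1 alone was above the STH sum in each QHMM library. AMPD2, the isoform found in most tissues, added little: with it the sums had means of 265 ± 68.6 in QHMM and 158 ± 28.6 in STH. AMPD2 itself had 80.8 to 94.4 normalized counts in QHMM and 85.5 to 102 in STH, a log2 difference of 0.06 (95% interval -0.47 to 0.60, FDR = 0.923).

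**Figure D3:**
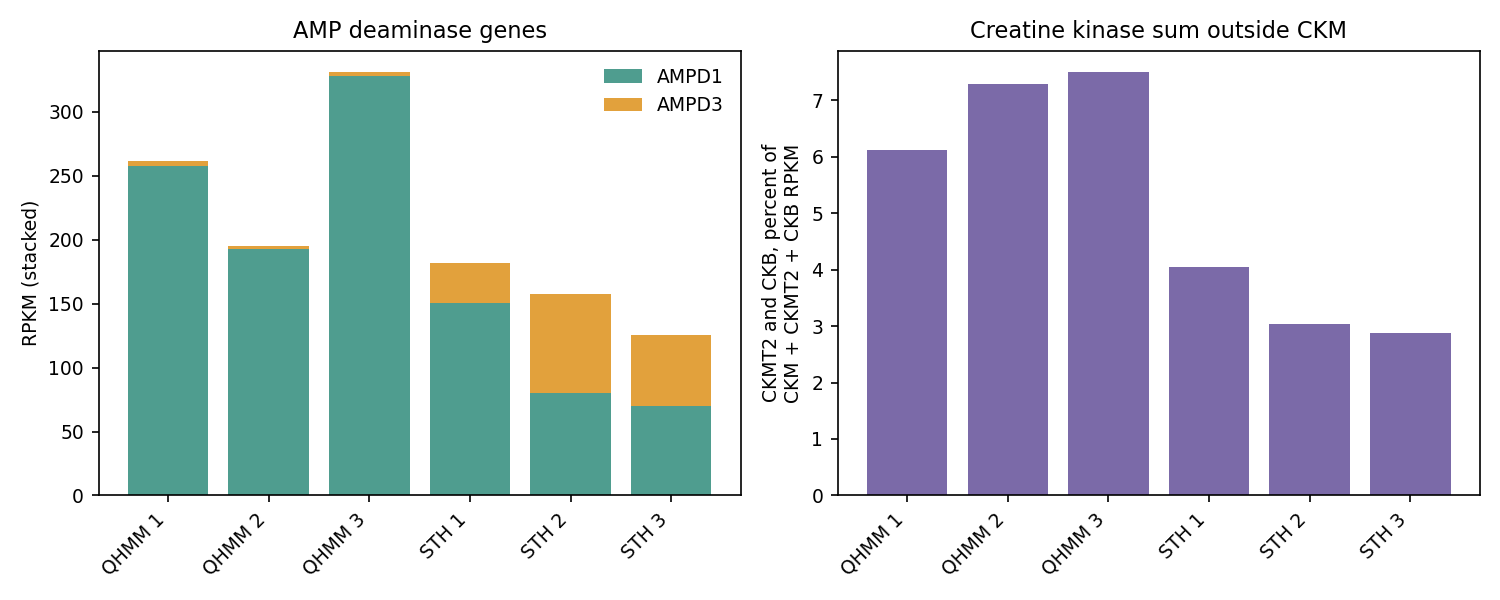
Left, stacked RPKM of AMPD1 (green) and AMPD3 (orange) in each library; right, the percent of the summed RPKM of CKM, CKMT2 and CKB that falls on CKMT2 and CKB. AMPD3 is a thin edge in QHMM, at 0.970% to 1.76% of its bar, and 17.2% to 49.2% in STH, and the right-hand bars are lower in all 3 STH libraries.

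For the other steps of the purine nucleotide cycle, edgeR called none of ADSSL1, ADSL and ADSS, and their values went in both directions. ADSSL1 had 6796, 8512 and 5193 normalized counts in QHMM and 3512, 3020.3 and 4371 in STH. The breeds did not overlap, with QHMM replicate 3 and STH replicate 3 nearest to each other. The log2 fold change was -0.91 (SE 0.27, 95% interval -1.50 to -0.32, FDR = 0.0916). ADSL, the lyase that releases AMP, had 1361, 1930.1 and 1795 normalized counts in QHMM and 1023, 999 and 1397 in STH, where replicate 3 reached above the lowest QHMM library. Its log2 difference was -0.57 (95% interval -1.10 to -0.05, FDR = 0.218). ADSS, the isoform of the synthetase found outside muscle, was low, at 29.3 to 51.8 normalized counts in QHMM and 44.8 to 101 in STH, which also overlapped, with a log2 difference of 0.76 (FDR = 0.305). DESeq2 called ADSSL1, at -0.93 on the log2 scale (FDR = 0.0146), and neither ADSL nor ADSS.

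Among the creatine kinases, the cytosolic and the mitochondrial genes of muscle had values of opposite sign, and edgeR called neither. CKM had 544007, 684314 and 410458 normalized counts in QHMM and 480740, 712234 and 822908 in STH. The breeds overlapped, since STH replicate 1 was below QHMM replicates 1 and 2. The log2 fold change was 0.30 (SE 0.32, 95% interval -0.41 to 1.01, FDR = 0.662), an interval that takes in both lower and higher levels in STH. CKMT2 had 25873, 39392 and 24319.8 normalized counts in QHMM and 14787, 16246 and 17719 in STH. All STH libraries were lower than all QHMM libraries, and QHMM replicate 2 was far above replicates 1 and 3. Its log2 fold change was -0.88 (SE 0.27, 95% interval -1.48 to -0.27, FDR = 0.110), and DESeq2 called it, with -0.90 (FDR = 0.0160). The summed slow-fibre markers differed in the same direction, and their part in this value was not tested.

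CKM took 93.9%, 92.7% and 92.5% of the creatine kinase RPKM in QHMM and 96.0%, 97.0% and 97.1% in STH. The shares of the breeds did not overlap, and their means differed by 3.66 percentage points, from 93.0% ± 0.744 to 96.7% ± 0.636 (two-sided exact permutation p = 0.10, the smallest possible; adjusted 0.10). Put the other way, the RPKM of CKM was 12.4 to 15.4 times that of CKMT2 in QHMM and 23.8 to 34.0 times in STH. CKB, the creatine kinase of brain and smooth muscle, took at most 0.0288% of the sum. It had 83.9, 45.6 and 48.7 normalized counts in QHMM and 42.1, 49.1 and 78.4 in STH, from 39 to 94 reads in a library. The log2 fold change of -0.08 (95% interval -0.87 to 0.71, FDR = 0.929) turned positive without QHMM replicate 1 (0.23) or STH replicate 1 (0.08), so no direction can be given. A further row that the authors describe as similar to CKB, LOC101119377, was at 0 in all libraries, and the mitochondrial isoform of other tissues, CKMT1B, was also listed at 0.

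**Figure D4:**
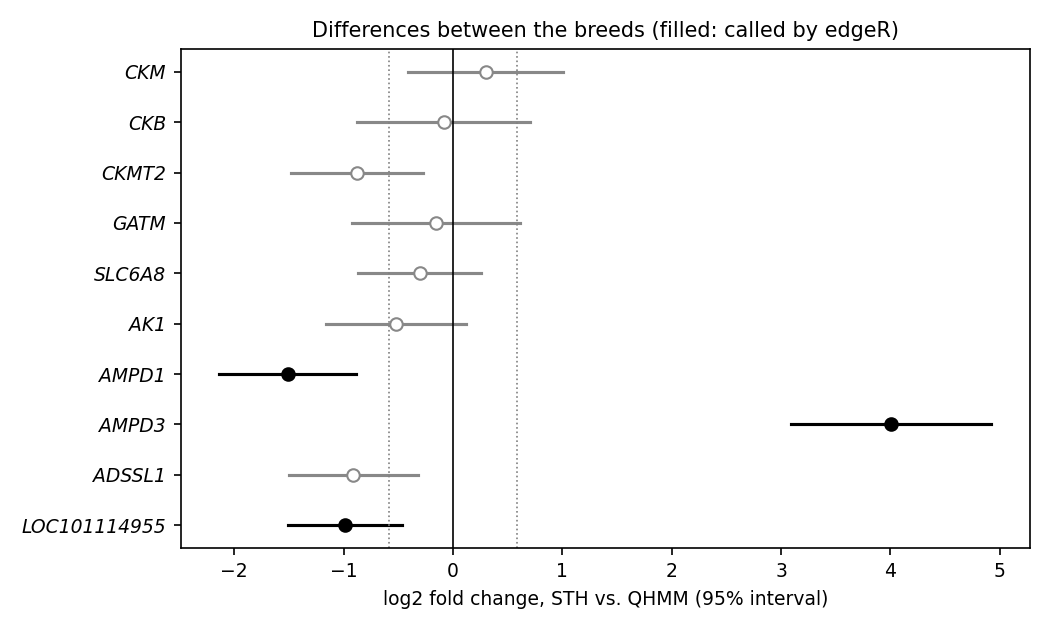
Log2 fold change of each gene in STH vs. QHMM with its 95% interval from edgeR's fit; filled points are called, open points are not, and dotted lines mark the smallest change that could be called in either direction. AMPD3 stands alone on the right at 4.01, AMPD1 and LOC101114955 are the filled points on the left, and the intervals of CKM, CKB, GATM, SLC6A8 and AK1 include 0.

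AK1 had 9183, 7248 and 7389 normalized counts in QHMM and 4172, 4611 and 7848 in STH. STH replicates 1 and 2 were below all QHMM libraries, but STH replicate 3 lay among them. The log2 fold change was -0.52 (SE 0.29, 95% interval -1.16 to 0.12, FDR = 0.362). Among the other adenylate kinases, the mitochondrial isoform AK4 was the only gene called of the 35 further genes of phosphotransfer and purine metabolism that were tested. AK4 fell from 619, 661 and 318 normalized counts in QHMM to 179.9, 88.7 and 168 in STH, a difference of -1.87 on the log2 scale (SE 0.34, 95% interval -2.63 to -1.11, FDR = 0.0193). The call was lost without QHMM replicate 1 (FDR = 0.0638) or QHMM replicate 2 (FDR = 0.0621). AK3, of the mitochondrial matrix, had -0.34 (95% interval -0.90 to 0.21, FDR = 0.499).

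Per length, the genes that supply creatine were far below CKM. SLC6A8, the transporter that brings creatine into the fibre, had 488, 667 and 379 normalized counts in QHMM and 329, 469 and 444 in STH. The breeds overlapped, and the log2 fold change was -0.31 (SE 0.26, 95% interval -0.87 to 0.26, FDR = 0.567). GATM, the arginine:glycine amidinotransferase that starts creatine synthesis, mostly in the kidney, had 86.6, 63.2 and 106 normalized counts in QHMM and 86.7, 99.4 and 42.6 in STH. The log2 difference of -0.16 (95% interval -0.93 to 0.61, FDR = 0.851) turned positive without QHMM replicate 3 or STH replicate 3. LOC101114955, the row with the gene ID of GAMT, whose methyltransferase completes creatine, stood above GATM per length, as given above, and had 1361, 1954 and 1318 normalized counts in QHMM and 879, 669 and 787 in STH. All STH libraries were below all QHMM libraries, and it fell by 0.99 on the log2 scale (SE 0.24, 95% interval -1.51 to -0.46, FDR = 0.0495). That FDR lies just inside the threshold, and the call was lost without any 1 of the 6 libraries, where the FDR was 0.0911, 0.159 and 0.0877 without QHMM replicates 1, 2 and 3 and 0.0558, 0.145 and 0.0912 without the STH replicates.

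A wider list of 54 names from phosphotransfer and purine metabolism had 43 genes in the table, of which 35 were tested. AK4 was the 1 gene called, or 1 of 35 where 3.45% of all tested genes were called, and the median log2 fold change of the 35 was 0.06 against 0.02 for all tested genes. DESeq2 called 3 of them, AK4 and NT5C1A as down-regulated and GMPR as up-regulated, where it called 973 of all 12506 tested genes. Other kinases that pass phosphate between nucleotides had 1 call, AK4, in 10 tested genes. Of the remaining 3 genes of the purine nucleotide cycle, given above, edgeR and DESeq2 called 0, and 1 had an unadjusted p below 0.05. Over all 12506 tested genes, 2395 had such a p-value in edgeR. Of 12 genes that break down or salvage AMP and IMP, edgeR called 0 (5 with an unadjusted p below 0.05) and DESeq2 called 1. The breeds did not overlap in 3 of the 10 kinases, 0 of the 3 cycle genes, 4 of these 12 and 5 of the 10 genes of purine synthesis, against 24.7% of all tested genes.

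NT5C1A, the 5'-nucleotidase that turns AMP into adenosine in muscle, had 550, 689 and 639 normalized counts in QHMM and 270, 385 and 407 in STH. The breeds did not overlap, and the log2 fold change was -0.82 (SE 0.23, 95% interval -1.33 to -0.32, FDR = 0.0765). ADA, which deaminates adenosine, had -0.78 (FDR = 0.191), and HPRT1, which salvages IMP from hypoxanthine, had 0.43 (FDR = 0.493). Of the 10 tested genes of purine synthesis and its guanine branch, edgeR called 0 and DESeq2 called 1. In edgeR 4 of the 10 had an unadjusted p below 0.05, against 2395 of all 12506 tested genes. In this group of 10, 2 values were below 0, where 6026 of all 12506 tested genes were. The median log2 fold change of the group was 0.48 against 0.02 for all tested genes. GMPR, GMPS and IMPDH2 are named here after their values were seen. GMPR, which turns GMP back into IMP, had 2726, 3857 and 3030.3 normalized counts in QHMM and 4550, 8686 and 8897 in STH. The log2 difference was 1.20 (SE 0.30, 95% interval 0.54 to 1.87, FDR = 0.0571). edgeR called GMPR without STH replicate 1 (1.44, FDR = 0.0207), in a fit that called 535 of all genes against 432 in the main fit. With any other 1 library left out GMPR was not called (FDR = 0.0997 to 0.185). IMPDH2, which draws IMP toward GMP, had 0.63 (FDR = 0.148), and GMPS, the next enzyme, had 0.70 (FDR = 0.141). These 3 are among the 5 of 10 genes in this group whose breeds did not overlap, against 24.7% of all tested genes.

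**Figure D5:**
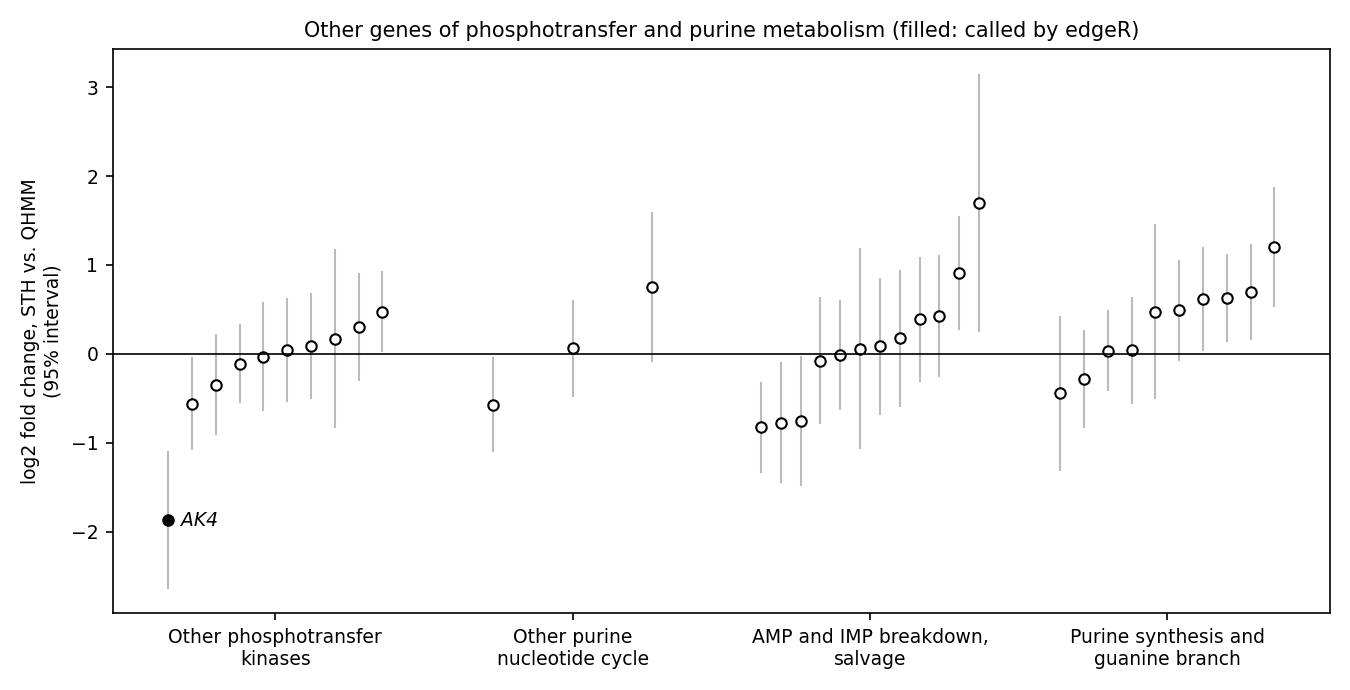
Log2 fold change in STH vs. QHMM, with 95% intervals, of the 35 tested genes of phosphotransfer and purine metabolism outside the 9 genes, in 4 groups and sorted within each group. AK4, at -1.87, is the only filled (called) point, and 2 of the 10 genes on the far right lie below 0.

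To show which genes shared the pattern of the called genes, normalized log2 counts were centred on each gene's mean and compared library by library. Over the 6 libraries and 9209 candidate genes, the nearest to AMPD1 were PDXP, TRIM13 and LOC101113965, with a root mean square difference of 0.11, 0.12 and 0.14 on the log2 scale. PDXP encodes the pyridoxal phosphatase, TRIM13 a ubiquitin ligase, and LOC101113965 is described by the authors as similar to ubiquitin D. PDXP had 159.8, 169.7 and 228 normalized counts in QHMM and 77.6, 45.9 and 59.4 in STH, with STH replicate 1 the highest of its breed as in AMPD1. The nearest to AMPD3 were SLC25A33, LOC101105167 and TRIM63, at the larger distances of 0.46, 0.47 and 0.48. SLC25A33 is a mitochondrial carrier of pyrimidine nucleotides, LOC101105167 has the gene ID that RefSeq lists as SPIDR, and TRIM63 is a ubiquitin ligase of muscle. TRIM63 had 3392, 3506 and 2696 normalized counts in QHMM and 16746, 60979 and 32657 in STH, with replicate 1 the lowest STH library as in AMPD3. Likeness of this kind includes the difference between the breeds, so these genes were bound to differ in the same direction. It also includes the order of libraries within a breed, so the shared place of STH replicate 1 was favoured by the choice.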

How the data were processed

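Longissimus muscle RNA of 6 sheep was sequenced on an Ion Proton instrument after poly(A) selection. The authors mapped filtered reads to the sheep genome (Oar 3.1), kept unique mapped reads and deposited raw counts per gene, beside RPKM values scaled by gene length and by the library's counts on genes. The aligner, the counting program and its use of strand are not given in the sources used here, so reads of a gene and an antisense partner cannot be told apart.

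Counts were tested in R 4.3.3 with edgeR 4.0.16 (TMM, filterByExpr on breed, glmQLFit, glmQLFTest, breed as the only term), with the thresholds of the study's methods. EBSeq, named there, was not used. SE and 95% intervals came from the log2 fold change, its F statistic and the fit's degrees of freedom. Within-library ratios were tested by exact permutation in SciPy 1.17.1. All p-values rest on 3 animals a breed, and those of edgeR use a spread estimated in part from the other genes. The edgeR and DESeq2 tests were first tried on simulated counts. So was limma-trend, though not on the RPKM scale used here. The permutation test was not tried on simulated data. Alternatives were DESeq2 1.42.0, limma 3.58.1 on log2(RPKM + 1) and log2(RPKM + 0.1), other normalizations, filters, thresholds and dispersions, the replicate number as a block, and leaving out libraries. Library totals without TMM, and leaving out QHMM replicate 2 with STH replicate 3, were added after the data were seen.

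Named were the 9 genes, LOC101114955, each called gene of the pathway lists and a fixed few of their genes in any case (1 of which is not reported here), and, for each called one of the 9, the 3 nearest by pattern among genes with a mean of at least 50 normalized counts. The genes and lists were chosen with earlier results of these data known. Names were matched by gene ID to RefSeq's ARS-UI_Ramb_v3.0 table; its coordinates belong to another build and are not used here.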

Additional observations from a re-analysis of the deposited data

How the results depend on the processing

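With 14 alternatives that kept all 6 libraries, the number of the 9 genes called was 2 in 9 of them. DESeq2 called 4 (AMPD3, AMPD1, ADSSL1 and CKMT2), and TREAT, an FDR below 0.01, limma-trend on every gene with an RPKM above 0 and library totals called 1 (AMPD3). With 1 library left out the number was 1 to 2, and without QHMM replicate 2 and STH replicate 3 edgeR called 0 (5 with an unadjusted p below 0.05), with only 2 libraries left in a breed. AMPD3 kept its sign in each of the 21 alternatives and AMPD1 likewise. Of the wider list, DESeq2 called 3 genes, 2 were called without a filter on low counts, with robust dispersions, with limma-trend on log2(RPKM + 1) or log2(RPKM + 0.1) and with library totals, and 0 with TREAT, an FDR below 0.01, limma-trend on every gene above 0 and edgeR without both libraries (3, 13, 11 and 8 with an unadjusted p below 0.05). With 1 library left out it was 0 to 2, with 0 without QHMM replicate 1 or 2 (7 in each with an unadjusted p below 0.05) and 2 without STH replicate 1. Over all genes, 131 were called without QHMM replicate 1, 208 without QHMM replicate 2 and 535 without STH replicate 1. Without a filter 806 of 17668 were called, with robust dispersions 436, and with limma-trend on log2(RPKM + 1) 346 of 11155. An unadjusted p below 0.05 was found for 1118 of all genes with TREAT and 2558 with limma-trend on every gene. It was found for 2010 and 2066 without QHMM replicates 1 and 2. The cause of these changes was not tested. The CKM share differed by 2.75 percentage points in counts in place of RPKM, which leaves out the gene lengths, and by 3.39 to 4.08 with 1 library left out.

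Signs turned only where values were near 0. CKB had 0.031 with limma-trend on log2(RPKM + 1), with or without the filter, 0.045 with log2(RPKM + 0.1), 0.23 without QHMM replicate 1 and 0.080 without STH replicate 1, in a range of -0.387 to 0.23 with 1 library left out. GATM had 0.026 without QHMM replicate 3 and 0.13 without STH replicate 3, from a lowest value of -0.408. AMPD2 had -0.027 without STH replicate 1 and at most 0.109 without another. The RPKM fits raise the median of all genes, to 0.12 with log2(RPKM + 1) and 0.14 with log2(RPKM + 0.1).

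The replicate numbers mark no stated pairing, and the deviations of same-numbered libraries had correlations of 0.22, -0.03 and -0.12 across genes. With the replicate number as a block, 2 of the 9 genes and 1 of the wider list were called, and LOC101114955 lost its call (FDR = 0.0810). The AMPD3 to AMPD1 difference (5.48) and the CKM share difference (3.66) cannot change under such a block. Each breed has 1 library of each replicate number, so the mean of the paired differences equals the difference of the means. CKB and GATM rest on 38 to 105 reads a library, which limits their precision.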
